A study of Tachysurus vachellii and Tachysurus fulvidraco x Tachysurus vachelli and Tachysurus fulvidraco with 9 samples.

Results

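The liver transcriptomes of 2 catfish species, the darkbarbel catfish Pelteobagrus vachelli and the yellow catfish P. fulvidraco, were compared across genes. Of the 9 libraries of the study, the 6 from the parental species were set against each other, 3 per species. The other 3 came from the hybrid of P. fulvidraco mothers and P. vachelli fathers. They entered the choice of tested rows and the estimate of the spread, but not the species means. All fish were juveniles with no treatment in the labels other than rearing. Each line came from artificial fertilization and grew in its own 3 aquaria, so species and rearing cannot be told apart. Nothing states whether 1 fish or a pool of fish made a library, and the p-values therefore measure the spread between these libraries, which may be a technical one.

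The liver of a fish makes most proteins of the blood plasma, stores and releases glucose and lipid, disposes of amino acid nitrogen, and oxidizes and conjugates foreign compounds. In females, and under estrogen, it also makes vitellogenin, the precursor of egg yolk. A related pair of species can differ in the level of a transcript and also in its sequence, and an assembly built from both then lists the form of each species as a row of its own.

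The deposited table gives TPM, a transcript level scaled for length and library size, for 57710 assembled rows. A row was tested where it reached 1 TPM in at least 3 of the 9 libraries, which left 51225 rows. Rows with the same gene symbol were then summed, ignoring case, which gave 10775 symbols from 16155 rows, and the text below is about these sums unless it says otherwise. Differences were tested with limma on log2(TPM + 1) and adjusted by Benjamini-Hochberg over all rows or all symbols, and "higher", "lower" and "called" mean an adjusted p under 0.05 for P. vachelli relative to P. fulvidraco. Levels are means ± SD over n = 3 libraries in the order P. vachelli against P. fulvidraco, and log2 differences carry the standard error of the fit. That scale understates differences between low levels. The depth of the libraries is unknown, because TPM do not keep it. Symbols are those of the deposited table, and where the protein description differs from the symbol the text gives the description.

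The parental libraries held 36107 to 37070 rows at 1 TPM or more. The tissue label was checked against markers: the hepatocyte list summed to 50088 to 56059.9 TPM over the P. vachelli libraries and 68082 to 73759 TPM over those of P. fulvidraco. P. fulvidraco 1 and 2 stood apart from P. fulvidraco 3 in vitellogenin, with 5.08% and 1.88% of all TPM against 0.00549%, and in the estrogen receptor esr1, at 32.2 and 30.4 against 1.98 TPM. The P. vachelli libraries held vitellogenin at 0.000108% or less and esr1 at 2.32 to 4.41 TPM. Each count of list members is therefore followed by the same count from a fit without P. fulvidraco 1 and 2, an alternative chosen after seeing the data. In that fit P. fulvidraco is the single library 3, which is assumed to vary like the other groups, and it called 33.3% of symbols. Exocrine pancreas, which lies within the liver of many bony fishes, was also present, and its markers are described at the end.

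Many genes differed between the species. Of 10775 symbols, 2577 (23.9%) were higher and 2662 (24.7%) lower in P. vachelli, 48.6% in all. The counts of list members from all libraries below are to be read beside these shares. All tested symbols together held 55.8% to 56.2% of TPM in the P. vachelli libraries. In the P. fulvidraco libraries they held 59.1% to 59.7%, and the rest lay in rows outside the sums. Summed levels of lists below are to be read beside this lower total in P. vachelli. Past a 2-fold difference there were 1094 higher (10.2%) and 1090 lower (10.1%) symbols, 20.3% in all. The median difference over all symbols was -0.01 and the median absolute difference 0.48 on the log2 scale, so rises and falls were balanced. Few differences were very large: 73 symbols were higher and 76 lower by 3 or more log2 units, and 11 and 13 by 5 or more. The log2(TPM + 1) scale keeps symbols of low level from reaching such differences, and the median level of the tested symbols was 6.04 TPM. For 2586 symbols (24.0%) the 95% interval of the difference lay within 1.5-fold in either direction, and 144 of these were still called. Another 3094 symbols were neither called nor bounded in this way, and for them these libraries leave the difference undecided. The 3 values of each species did not overlap in 6503 symbols (60.4%).

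**Figure D1:**
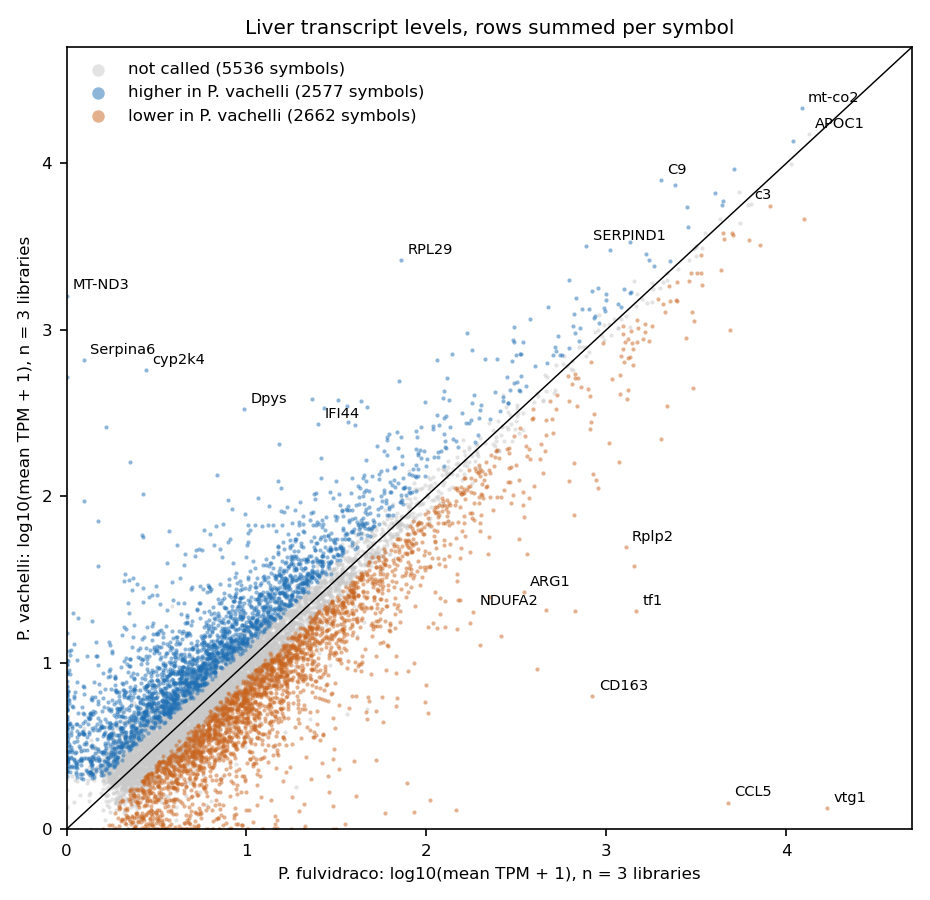
Mean level of each symbol in P. fulvidraco (x axis) and P. vachelli (y axis), both as log10(mean TPM + 1) over 3 libraries, with the 2577 higher symbols in blue, the 2662 lower symbols in orange and the 5536 symbols that were not called in grey. The line marks equal levels, and CCL5, CD163 and tf1 lie far below it while cyp2k4, Serpina6 and RPL29 lie far above it.

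Calls were more frequent among abundant transcripts. Under 2 TPM 37.8% of symbols were called, from 2 to 10 TPM 44.0%, from 10 to 100 TPM 58.3% and from 100 TPM 70.0%, while the median absolute difference went from 0.43 to 0.58. Across symbols, which are no replicates of one another, Spearman's rho was 0.960 to 0.966 between libraries of P. vachelli, 0.940 to 0.960 within P. fulvidraco and 0.786 to 0.804 between the species. Of the 20 most abundant symbols of each species, 12 were shared (60% of each list).

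Rows were also tested singly. Of 51225 rows, 14058 (27.4%) were higher and 13797 (26.9%) lower, 54.4% in all. This share is not that of the rows behind the sums, because 35070 rows had no symbol. Of the 16155 rows with a symbol 45.1% were called, and of the rows without a protein description 59.3%. Among all tested rows, 3807 reached 1 TPM in each P. vachelli library and were listed at 0 in each P. fulvidraco library, and 3765 showed the reverse. Such single-species rows made up 21.6% of the 30340 rows without a protein description, 4.82% of the 20885 described rows and 2.46% of the rows with a symbol. After summing, 49 symbols remained in P. vachelli alone and 38 in P. fulvidraco alone by the same rule. Of the 3335 symbols with several rows, 499 (14.96%) had rows called in both directions, and in 231 of these the sum was not called.

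The complement protein c3, the hub of the complement cascade, shows how rows and sums part. It had 19 rows, 6 of them higher and 9 lower in P. vachelli. One row stood at 2343 ± 230.2 against 236 ± 82.2 TPM, while another stood at 0.06 ± 0.104 and 1393 ± 383 TPM. The sums were 5095, 6105 and 5632 TPM in the P. vachelli libraries and 7306, 5361 and 5744 TPM in those of P. fulvidraco, and the groups overlapped (-0.12 ± 0.13). Itih3, a heavy chain of the inter-alpha-trypsin inhibitor that binds hyaluronan, had 6 rows higher and 3 lower of 9. Its row highest in P. vachelli (2646 ± 344 against 139 ± 32.2 TPM) is described as heavy chain 4-like. So is another row, at 74.4 ± 11.8 against 1097 ± 119 TPM. By description the symbol therefore covers more than 1 family member. Its sums were 5887, 5975 and 5200.2 TPM in the P. vachelli libraries and 6306, 5872 and 7017 TPM in those of P. fulvidraco (-0.17 ± 0.09). G6PC, the glucose-6-phosphatase that releases glucose from the liver, had 2 rows higher and 2 lower of 4 and sums of 1925 ± 33.8 against 1806 ± 496 TPM. None of these 3 sums was called, although the row of highest mean alone was called in each. The mitochondrial mt-co2, cytochrome c oxidase subunit II, had 1 row per species, and its sum was higher in P. vachelli (21480.5 ± 1296 against 12212 ± 869 TPM (log2 difference 0.82 ± 0.08)).

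In other genes the rows moved together. The pore-forming complement protein C9 had 2 rows, at 4767 ± 299 against 539 ± 32.1 TPM and at 3156 ± 254 against 1484 ± 66.3 TPM. Its sums were 7379, 8484 and 7907 TPM in the P. vachelli libraries and 1988, 1980.2 and 2101 TPM in those of P. fulvidraco, and every P. vachelli library lay above every P. fulvidraco library (1.97 ± 0.08, adjusted p = 2.33e-07). A sum can also rest on rows of 1 species. FN1, the matrix and plasma protein fibronectin, summed to 449 ± 22.5 against 3029 ± 44.6 TPM (log2 difference -2.75 ± 0.07), but the row that was highest in P. vachelli stood at 418 ± 17.8 against 559 ± 43.2 TPM, and most of the remaining P. fulvidraco level came from rows near 0 in P. vachelli. Its fold change is therefore not read as that of the gene.

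**Figure D2:**
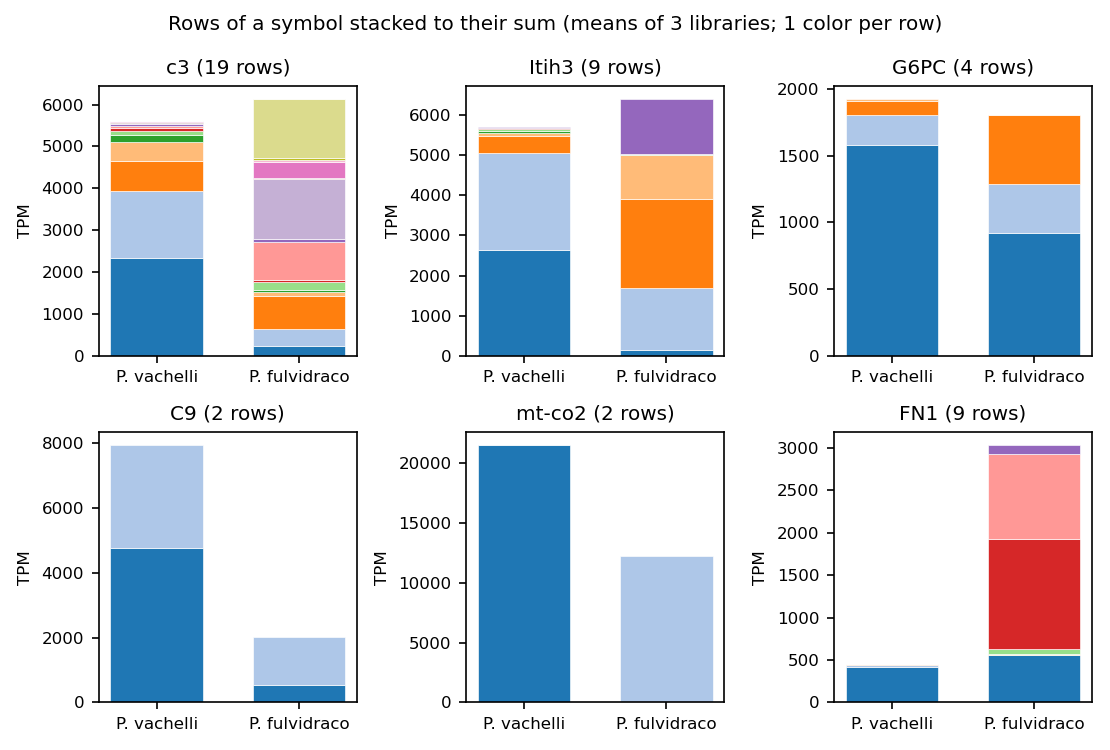
Mean TPM over 3 libraries of the rows of 6 symbols, stacked to the sum per symbol in each species, with the y axis in TPM from 0 and 1 color per row. The sums of c3, Itih3 and G6PC are alike although their rows differ, C9 is higher in P. vachelli in both of its rows, mt-co2 has 1 row per species, and the FN1 sum of P. fulvidraco consists mostly of rows near 0 in P. vachelli.

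Among abundant symbols with a mean of at least 1 TPM in each species, the largest rise was that of a cytochrome P450 of a fish family. cyp2k4, a member of the enzymes that oxidize fatty acids and foreign compounds, stood at 529, 538 and 647 TPM in the P. vachelli libraries and 0.52, 3.23 and 1.52 TPM in those of P. fulvidraco. All P. vachelli libraries were more than 100 times above those of P. fulvidraco (7.81 ± 0.34, adjusted p = 4.93e-07). The related symbol cyp2k1 summed over 3 rows to 1327 against 735 TPM. Its row described as cytochrome P450 2K4-like stood at 235 ± 30.5 against 0.783 ± 0.67 TPM. The near absence in P. fulvidraco thus held for cyp2k4 and that row, and not for every symbol of this family. NRXN2, neurexin 2, a cell adhesion protein of neurons, stood at 160.0 ± 13.1 against 1.26 ± 1.06 TPM (6.28 ± 0.32). Dpys, dihydropyrimidinase of pyrimidine breakdown, stood at 342, 334 and 327 TPM in the P. vachelli libraries and 8.43, 8.2 and 9.45 TPM in those of P. fulvidraco, with tight groups far apart (5.11 ± 0.16). The ribosomal protein RPL29 stood at 2517, 2859 and 2461 TPM in the P. vachelli libraries and 77, 62.3 and 74.5 TPM in those of P. fulvidraco (5.18 ± 0.16). Nearly all of it was 1 row, at 2612 ± 215 against 70.5 ± 7.51 TPM, whose description is that of a goose protein. As with the other ribosomal proteins given below, the value of this single member is uncertain. The secreted signal WNT11 was at 57.9 ± 5.33 against 1.63 ± 0.368 TPM (4.49 ± 0.25), the thromboxane synthase TBXAS1 at 56.2 ± 0.541 against 1.65 ± 2.02 TPM (4.69 ± 0.40), and the hydroxyacid-oxoacid transhydrogenase Adhfe1 at 30.0 ± 8.97 against 1.08 ± 0.0839 TPM (3.85 ± 0.31). GSTM3, a glutathione transferase, was at 206 ± 12.2 against 14.2 ± 2.52 TPM (3.78 ± 0.14), and the heparan sulfate proteoglycan SDC3 at 31.4 ± 2.37 against 1.33 ± 0.238 TPM (3.80 ± 0.11). SAT2, described as a diamine acetyltransferase, was higher but uneven, with 266, 90.5 and 43.3 TPM in the P. vachelli libraries and 6.55, 7.7 and 3.3 TPM in those of P. fulvidraco. SETD1A, a histone H3 lysine 4 methyltransferase, was at 382 ± 52.4 against 22.1 ± 3.35 TPM (4.05 ± 0.14).

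The largest differences downward included plasma and immune proteins. CD163, described as a scavenger receptor cysteine-rich protein, stood at 4.87, 4.94 and 6.08 TPM in the P. vachelli libraries and 765, 874 and 872 TPM in those of P. fulvidraco, with no overlap (-7.06 ± 0.16, adjusted p = 1.96e-08). DMBT1, of the same protein family by its description, stood at 19.6 ± 2.47 against 459 ± 22.2 TPM (-4.49 ± 0.11). The chemokine with the symbol CCL5, described as small inducible cytokine A3, stood at 1.2, 0.12 and 0 TPM in the P. vachelli libraries and 5034, 4821 and 4329 TPM in those of P. fulvidraco. It was among the 20 most abundant symbols of P. fulvidraco and close to absent in P. vachelli. CCL3 had 8 rows and a sum of 37.3 ± 7.57 against 1433 ± 65.2 TPM (-5.25 ± 0.28), carried in P. fulvidraco by a single row of 1326 ± 58.6 TPM. MP68, a small proteolipid of the mitochondrial ATP synthase, stood at 8.14 ± 0.575 against 412 ± 48.6 TPM (-5.49 ± 0.12), the cytochrome P450 with the symbol CYP2C8 at 19.6 ± 5.14 against 667 ± 75.1 TPM (-5.05 ± 0.19) and the ribosomal stalk protein Rplp2 at 48.4 ± 6.81 against 1280.0 ± 49.3 TPM (-4.71 ± 0.13). galnt11 and ST6GALNAC2, enzymes that start and sialylate O-linked sugar chains, stood at 13.5 ± 0.217 against 258 ± 33.4 TPM (-4.15 ± 0.10) and 4.79 ± 0.61 against 97.9 ± 18.7 TPM (-4.08 ± 0.14).

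For some of these genes the fall or rise of a symbol went with rows under another symbol. tf1, described as transferrin, stood at 20.4, 18.4 and 19.3 TPM in the P. vachelli libraries and 1902, 1345 and 1151 TPM in those of P. fulvidraco (-6.14 ± 0.19), while the abundant transferrin tf, the iron carrier of plasma, stood at 5382, 6128 and 5035 TPM in the P. vachelli libraries and 8493, 7807 and 8132 TPM in those of P. fulvidraco (-0.57 ± 0.10). Both were lower, and rows of the same description together summed to 5535 against 9610.2 TPM. Gpt2, alanine aminotransferase, stood at 1.59 ± 0.0862 against 51.3 ± 2.18 TPM (-4.33 ± 0.09), but gpt2l went the other way at 849.6 ± 50.0 against 343 ± 33.3 TPM (1.31 ± 0.09), and the rows described like Gpt2 summed to 851 against 394 TPM. Serpina6 stood at 659 ± 90.2 against 0.25 ± 0.433 TPM, while the 8 rows with its description, serine protease inhibitor 2.1-like, summed to 2259 against 2034 TPM. CCL8 was higher at 102 ± 17.8 against 1.65 ± 0.409 TPM (5.28 ± 0.36), and the rows with its description were lower at 209.9 against 342 TPM. For these last 3 symbols the call or its direction therefore held only for the symbol.

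**Figure D3:**
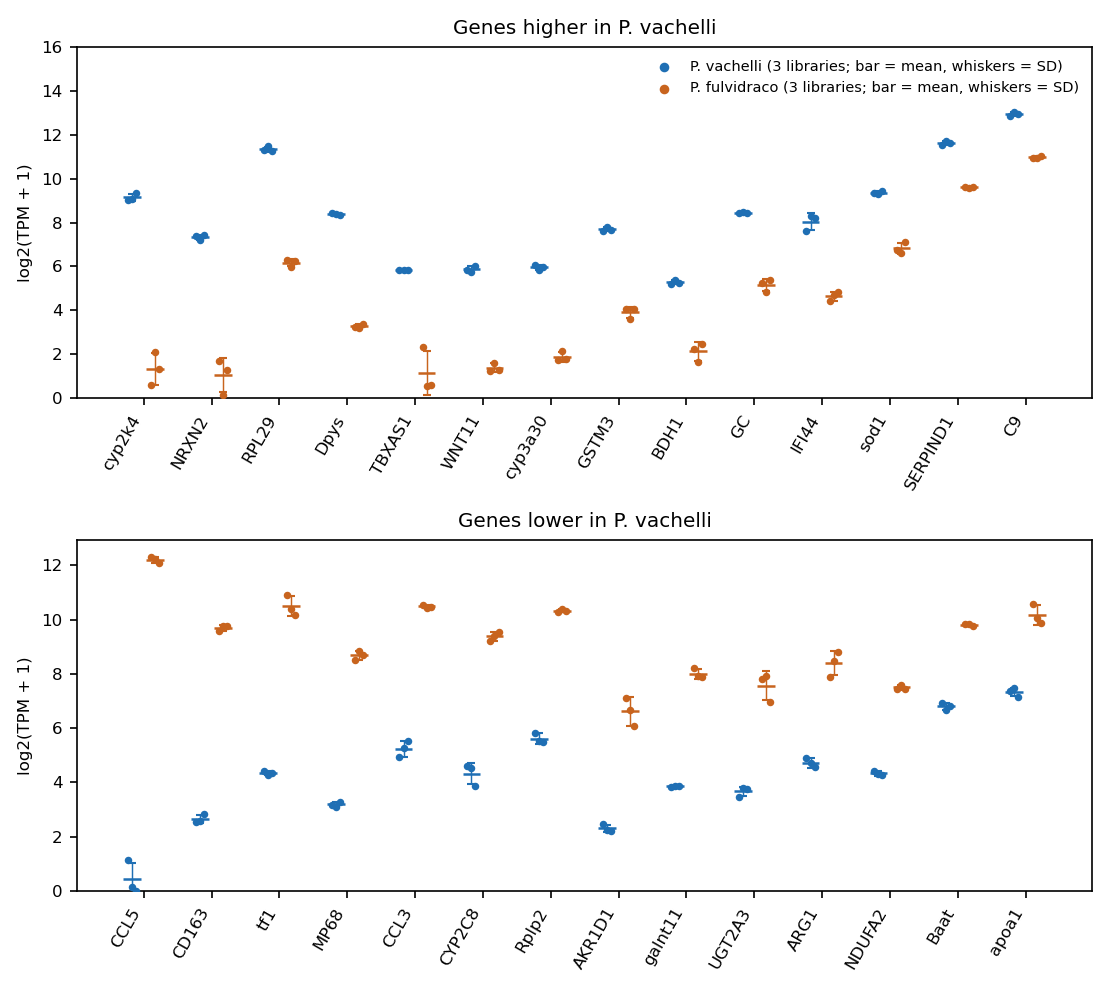
Levels of 28 genes that the text describes as log2(TPM + 1) in each library, 3 points per species, with the mean as a bar and the SD as whiskers; P. vachelli is blue and P. fulvidraco orange. Genes higher in P. vachelli are in the upper panel and genes lower in the lower panel. In none of the 28 do the groups overlap, but the largest differences were chosen for that, and it held in 60.4% of all symbols.

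Several symbols were near 0 in 1 species. Besides CCL5, those near 0 in P. vachelli were pabpc1-a, a poly(A)-binding protein (0.5 ± 0.866 against 104 ± 10.1 TPM), CPI17, an inhibitor of myosin phosphatase (0.263 ± 0.0493 against 84.8 ± 16.8 TPM), Slc24a3, a cation exchanger (0.08 ± 0.0854 against 34.3 ± 2.56 TPM), and Sult1d1, a sulfotransferase, at 29.1 ± 2.33 TPM and listed at 0 in each P. vachelli library. Those near 0 in P. fulvidraco were MT-ND3, a mitochondrial subunit of complex I, at 1603 ± 36.9 TPM and listed at 0 in each P. fulvidraco library, and the noradrenaline transporter SLC6A2 (37.1 ± 8.49 against 0.49 ± 0.14 TPM). brk1, a part of the complex that drives actin branching, was at 261 ± 20.1 against 0.663 ± 0.575 TPM, and hisat, histidine N-acetyltransferase, at 18.9 ± 1.03 against 0.0867 ± 0.0252 TPM. Whether the other species expressed a form that carries no symbol here was not tested. A symbol near 0 can be an assembled form and not the whole gene, as with pabpc1-a, whose description covered 6 rows that summed to 533 against 796 TPM.

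The most abundant transcripts without a difference past 1.5-fold included plasma proteins. APOC1, an apolipoprotein of plasma lipoproteins, stood at 14875, 16145 and 13873 TPM in the P. vachelli libraries and 13463, 13990.0 and 12752 TPM in those of P. fulvidraco (0.16 ± 0.08, not called). The 3 fibrinogen chains, which form the clot, were also bounded: FGB at 9861 ± 759 against 10680.2 ± 1160.1 TPM (-0.11 ± 0.09), FGG at 4647 ± 206 against 4314 ± 248 TPM (0.11 ± 0.07) and FGA, which was called, at 5599 ± 467 against 4378 ± 106 TPM (0.35 ± 0.07). The ribosomal protein rps24 (0.11 ± 0.12) and the liver complement protease with the symbol MASP1, described as complement C1r (-0.06 ± 0.07), were within the same bound. These intervals show differences smaller than 1.5-fold and do not show equality.

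Genes of the blood plasma differed in both directions. In the list of plasma transport proteins, 7 were higher and 6 lower of 16 measured (median -0.17; 5 and 7 without P. fulvidraco 1 and 2). Their summed level was lower in P. vachelli without overlap, at 30836 to 33851 TPM over the P. vachelli libraries and 43053 to 51761 TPM over those of P. fulvidraco. The vitamin D-binding protein GC stood at 351, 354 and 346 TPM in the P. vachelli libraries and 36.9, 28 and 40.7 TPM in those of P. fulvidraco, with tight P. vachelli values far above all others (3.29 ± 0.12). CETP, which exchanges cholesteryl esters between lipoproteins, was at 260.0 ± 32.1 against 92.9 ± 7.84 TPM (1.47 ± 0.11), and TTR, the thyroid hormone carrier transthyretin, at 126 ± 10.8 against 53.4 ± 20.2 TPM (1.29 ± 0.26). The selenium carrier sepp1a was lower at 3246 ± 41.3 against 7199 ± 1151 TPM (-1.14 ± 0.12) and the steroid carrier Shbg at 192 ± 11.3 against 371 ± 12.1 TPM (-0.95 ± 0.08). hpx, the heme carrier hemopexin, described as warm temperature acclimation protein, stood at 4094, 5697 and 4125 TPM in the P. vachelli libraries and 10276, 12035 and 15574 TPM in those of P. fulvidraco, without overlap (-1.44 ± 0.17). In the list of acute phase and iron genes, 9 were higher and 2 lower of 15 measured (median 0.39; 5 and 2 without P. fulvidraco 1 and 2), and 5 were higher without P. vachelli 2. The summed level of this list, which mostly follows its most abundant members, went the other way. The list summed to 7281 to 9283 TPM over the P. vachelli libraries and 12632 to 18264 TPM over those of P. fulvidraco, without overlap. Its higher members included the hepcidin regulators Hfe2 (hemojuvelin) at 29.4 ± 1.04 against 15.2 ± 1.24 TPM (0.91 ± 0.11) and Tmprss6 at 57.8 ± 5.01 against 27.3 ± 3.77 TPM (1.06 ± 0.11), and the ferric reductase STEAP4 at 112 ± 23.9 against 41.7 ± 16 TPM (1.44 ± 0.25).

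Of the complement genes, 9 were higher and 5 lower of 24 measured (median 0.07; 7 and 5 without P. fulvidraco 1 and 2). The terminal proteins that build the membrane pore were on the higher side: C9, C7 at 387 ± 69.2 against 123 ± 24.7 TPM (1.64 ± 0.17) and, less clearly, C6 at 602 ± 78.1 against 401 ± 25.3 TPM (0.58 ± 0.18) and C8A at 322 ± 1.61 against 256 ± 40.3 TPM (0.34 ± 0.12). C6 was not called without P. fulvidraco 2 (0.53) or without P. vachelli 2 (0.48), and C8A was called with every library but not without any 1 of them other than P. fulvidraco 3. C5, whose cleavage starts that assembly, was lower at 257, 294 and 279 TPM in the P. vachelli libraries and 852, 774 and 827 TPM in those of P. fulvidraco (-1.56 ± 0.07), as was the alternative pathway protease CFB at 2182 ± 62.3 against 3203 ± 141 TPM (-0.55 ± 0.08). Of the coagulation genes, 5 were higher and 13 lower of 29 measured (median -0.23; 4 and 14 without P. fulvidraco 1 and 2). Heparin cofactor SERPIND1 was higher at 2999, 3366 and 3164 TPM in the P. vachelli libraries and 784, 756 and 784 TPM in those of P. fulvidraco (2.03 ± 0.07), and protein C, PROC, an anticoagulant protease, at 396 ± 12 against 265 ± 8.39 TPM (0.57 ± 0.06). Lower members were prothrombin F2 at 1931 ± 26.6 against 2459 ± 136 TPM (-0.35 ± 0.07), factor VII F7 at 849.6 ± 31.5 against 1269 ± 80.3 TPM (-0.58 ± 0.07), plasminogen PLG at 1869.8 ± 49.6 against 3425 ± 568 TPM (-0.86 ± 0.11), antithrombin Serpinc1 at 1276 ± 43.9 against 2124 ± 129.7 TPM (-0.73 ± 0.07) and antiplasmin Serpinf2 at 166 ± 6.58 against 430.1 ± 36.6 TPM (-1.37 ± 0.08). Clotting and anticlotting proteins thus stood on both sides of the comparison.

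Among apolipoproteins and lipoprotein enzymes, 5 were higher and 7 lower of 21 measured (median -0.13; 4 and 6 without P. fulvidraco 1 and 2). The symbol apoa1, described as apolipoprotein A-IV, stood at 162, 177 and 143 TPM in the P. vachelli libraries and 1522, 1064 and 949.9 TPM in those of P. fulvidraco, without overlap (-2.84 ± 0.17). Lipoprotein lipase LPL, which frees fatty acids from circulating triglyceride, was lower at 101 ± 6.24 against 303 ± 46.3 TPM (-1.57 ± 0.12), and hepatic lipase LIPC higher at 114 ± 6.73 against 40.7 ± 14.9 TPM (1.51 ± 0.22). Apob, the structural protein of large lipoproteins, was lower as a symbol at 434 ± 13.4 against 1327 ± 124 TPM (-1.61 ± 0.08). The sum of all rows with its description was higher, with a log2 difference of 0.46, so no direction is given for it. Counts of lists that hold Apob, FN1, Gpt2 or CCL8 still use the call of the symbol.

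Genes of fatty acid oxidation, which release energy from fat, were more often higher than lower. Of its genes, 19 were higher and 8 lower of 37 measured (median 0.41; 14 and 7 without P. fulvidraco 1 and 2), against 23.9% higher and 24.7% lower of all symbols. BDH1, which interconverts ketone bodies, stood at 36.2, 40.7 and 36.7 TPM in the P. vachelli libraries and 3.75, 2.17 and 4.56 TPM in those of P. fulvidraco (3.15 ± 0.20). Acyl-CoA dehydrogenases of long and short chains, Acadl and ACADS, stood at 80.8 ± 1.21 against 33.1 ± 2.93 TPM (1.27 ± 0.11) and 56.4 ± 1.08 against 26 ± 1.83 TPM (1.09 ± 0.12), while the medium-chain enzyme ACADM was lower at 71.5 ± 5.84 against 184 ± 5.5 TPM (-1.36 ± 0.09). Peroxisomal enzymes also divided: SCP2, a thiolase and sterol carrier, was higher at 1166 ± 57.8 against 377 ± 12.5 TPM (1.63 ± 0.10) and HSD17B4 at 275 ± 22.8 against 165 ± 2.15 TPM (0.73 ± 0.10), while the bifunctional ehhadh was lower at 24.2, 23.6 and 22.3 TPM in the P. vachelli libraries and 107, 107 and 141 TPM in those of P. fulvidraco (-2.28 ± 0.12). Of the enzymes that bring fatty acids into mitochondria, CPT1A was lower at 21.4 ± 2.75 against 42.6 ± 5.07 TPM (-0.96 ± 0.17), and cpt2 was not called (-0.21 ± 0.15).

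Respiratory genes split by the genome that carries them. Of the nuclear genes of oxidative phosphorylation, 8 were higher and 43 lower of 64 measured (median -0.43; 5 and 33 without P. fulvidraco 1 and 2); the higher count was 5 without P. fulvidraco 1, without P. vachelli 2 and without P. vachelli 3. NDUFA2 and NDUFA7 of complex I stood at 19.3 ± 1.21 against 181 ± 11.4 TPM (-3.17 ± 0.08) and 16.9 ± 1.21 against 51.3 ± 7.17 TPM (-1.54 ± 0.18), and ndufa4 at 397 ± 9.45 against 814 ± 25.5 TPM (-1.03 ± 0.07). The higher members included UQCR11 of complex III at 98.8 ± 12.2 against 43.7 ± 10.4 TPM (1.18 ± 0.21). Of the mitochondrially encoded genes, 10 were higher and 1 lower of 11 measured (median 0.52; 10 and 1 without P. fulvidraco 1 and 2), and together they held 5.95% of TPM in P. vachelli and 3.73% in P. fulvidraco on average. These values include MT-ND3, listed at 0 in each P. fulvidraco library and the 1 member called higher past 2-fold. Whether P. fulvidraco expressed MT-ND3 in a row without the symbol was not tested. mt-co3, cytochrome c oxidase subunit III, stood at 9773, 8222 and 9755 TPM in the P. vachelli libraries and 4309, 5525 and 5578 TPM in those of P. fulvidraco, and MT-ND6, encoded on the opposite strand from the rest, was the lower member at 10.4 ± 1.86 against 20.8 ± 3.25 TPM (-0.94 ± 0.18). With the row of highest mean over all libraries in place of the sum, the mitochondrial list had 6 higher and 5 lower. Of the citrate cycle genes, 9 were higher and 8 lower of 25 measured (median 0.00; 5 and 5 without P. fulvidraco 1 and 2), with SUCLG1, a subunit of succinyl-CoA ligase, at 71 ± 1.34 against 21.4 ± 0.606 TPM (1.68 ± 0.08), cytosolic malate dehydrogenase MDH1 at 865 ± 20.5 against 302 ± 22.4 TPM (1.52 ± 0.10) and the succinate dehydrogenase subunit sdha at 18.8 ± 0.807 against 31.7 ± 1.98 TPM (-0.72 ± 0.09).

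Enzymes that build and store fatty acids moved both ways. In that list, 11 were higher and 13 lower of 39 measured (median -0.05; 9 and 7 without P. fulvidraco 1 and 2). The chain elongases elovl5 and elovl6 were higher at 368 ± 18.1 against 97.3 ± 8.19 TPM (1.91 ± 0.13) and 42.3 ± 8.4 against 8.92 ± 0.54 TPM (2.11 ± 0.14), while ELOVL4, which makes very long chains, was lower at 14.8 ± 2.85 against 147 ± 21.6 TPM (-3.22 ± 0.25). The desaturase fads2, which introduces double bonds into polyunsaturated fatty acids, stood at 160.2, 92.1 and 121 TPM in the P. vachelli libraries and 1365, 666 and 594 TPM in those of P. fulvidraco; every P. vachelli library was below every P. fulvidraco library, and P. fulvidraco 1 was the highest (-2.74 ± 0.30). The lipases Pnpla2 and Mgll, which take triglyceride apart, were lower at 4.89 ± 1.08 against 46.8 ± 7.19 TPM (-3.03 ± 0.20) and 4.36 ± 0.836 against 36.2 ± 2.33 TPM (-2.80 ± 0.19). The triglyceride-forming dgat2 was higher at 104 ± 6.46 against 57 ± 5.78 TPM (0.86 ± 0.09).

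Cholesterol synthesis varied widely within P. fulvidraco. Between acetyl-CoA and cholesterol, 19 enzymes, taken from the sterol list after their values were seen, were all highest in P. fulvidraco 1 among the libraries of that species, and 18 of 19 were higher in P. fulvidraco 2 than in 3. SQLE, squalene monooxygenase, stood at 8.89, 11.5 and 16.2 TPM in the P. vachelli libraries and 31.9, 5.99 and 1.1 TPM in those of P. fulvidraco. Lss, lanosterol synthase, stood at 9.39, 11.2 and 13.5 TPM in the P. vachelli libraries and 47.4, 5.88 and 2.71 TPM in those of P. fulvidraco. In both the P. vachelli values lay between P. fulvidraco 1 and 3. Summed over the 19 enzymes, the levels were 519, 647 and 737 TPM for P. vachelli libraries 1 to 3 and 998.8, 308 and 193 TPM for those of P. fulvidraco. P. fulvidraco 1 was above every P. vachelli library in 16 enzymes, and P. fulvidraco 3 was below every P. vachelli library in 16. The median ratio of P. fulvidraco 1 to P. fulvidraco 3 was 4.73, and that of the highest to the lowest P. vachelli library was 1.44. With all libraries 2 enzymes were called higher, CYP51A1 and Sc5d, and 0 lower by limma, with 3 higher and 1 lower at an unadjusted p under 0.05. CYP51A1 was not called without P. fulvidraco 2, P. fulvidraco 3 or P. vachelli 3 (1.92 to 2.57). The count depended on which library was left out. Without P. fulvidraco 1 it was 9 higher and 0 lower, without P. fulvidraco 3 it was 1 higher and 3 lower, and without P. fulvidraco 1 and 2 it was 11 higher and 0 lower. The order of these libraries is also that of vitellogenin, given above, and its part in the result was not tested. For the whole list of sterol and bile acid genes, 7 were higher and 7 lower of 38 measured (median 0.04; 17 and 6 without P. fulvidraco 1 and 2), and 15 were higher without P. fulvidraco 1. The summed level of that list was 2109 to 2342 TPM over the P. vachelli libraries and 2583 to 3367 TPM over those of P. fulvidraco, without overlap.

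**Figure D4:**
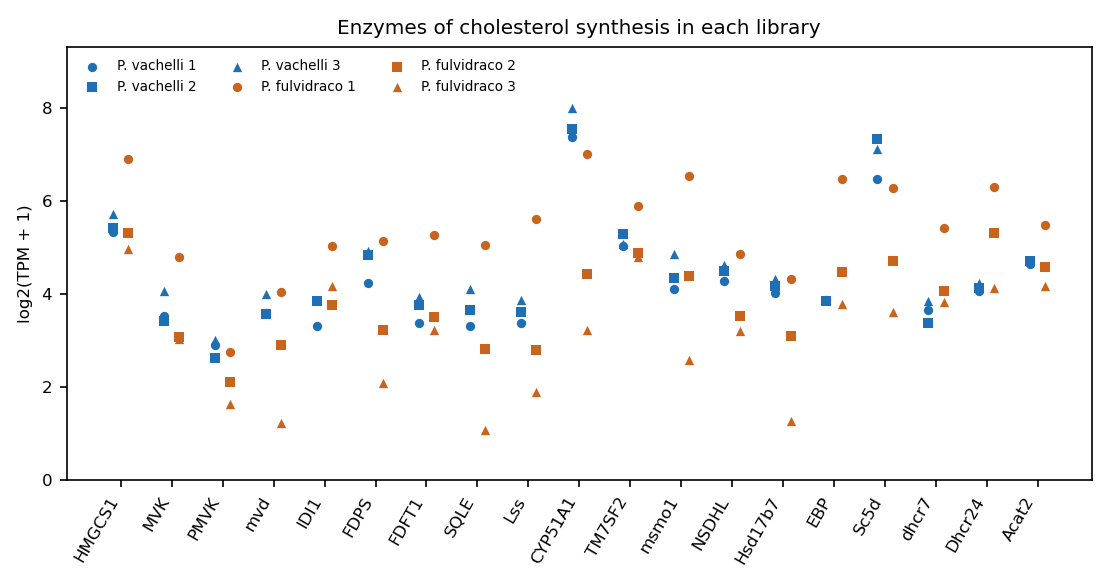
Level of 19 enzymes of cholesterol synthesis in each parental library as log2(TPM + 1), with P. vachelli in blue, P. fulvidraco in orange and the library number as the marker shape. P. fulvidraco 1 (orange circles) is the highest library of its species for all 19 enzymes, and the P. vachelli libraries lie close together.

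Genes of bile acid synthesis and export were called in both directions. Baat, which conjugates bile acids to amino acids, was lower at 122, 101 and 111 TPM in the P. vachelli libraries and 911, 917 and 875 TPM in those of P. fulvidraco, with P. fulvidraco 1 to 3 close together (-3.01 ± 0.11). AKR1D1, the steroid 5-beta-reductase, was lower at 3.98 ± 0.473 against 101 ± 35.1 TPM (-4.30 ± 0.23), CYP7A1, the rate-limiting hydroxylase of the classical route, at 5.3 ± 0.819 against 18.1 ± 1.7 TPM (-1.60 ± 0.13), and the bile salt export pump ABCB11 at 97.9 ± 6.08 against 226 ± 45.5 TPM (-1.18 ± 0.18). CYP27A1 and Cyp7b1 of the acidic route were higher at 376 ± 35.3 against 133 ± 14 TPM and 54.4 ± 1.96 against 28 ± 3.41 TPM (0.94 ± 0.10). CYP7A1 was thus called in the opposite direction from CYP27A1 and Cyp7b1, and these are too few genes to give a direction for either route.

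Enzymes for foreign compounds were more often lower than higher in P. vachelli, with large exceptions. Of the cytochrome P450 list, 8 were higher and 13 lower of 26 measured (median -0.34; 8 and 8 without P. fulvidraco 1 and 2). Lower were the relatives cyp3a40 and cyp3a27 at 157 ± 17.2 against 661 ± 65.8 TPM (-2.07 ± 0.11) and 96.5 ± 14.3 against 369 ± 61.2 TPM (-1.92 ± 0.14) and the epoxygenase CYP2J2 at 409 ± 33 against 1197 ± 103 TPM (-1.55 ± 0.10). Higher were cyp3a30, described as CYP3A125, at 61.1 ± 5.2 against 2.72 ± 0.638 TPM (4.07 ± 0.15) and cyp1a1, the classic target of the aryl hydrocarbon receptor, at 277, 226 and 199 TPM in the P. vachelli libraries and 43, 65.7 and 74.3 TPM in those of P. fulvidraco (1.95 ± 0.25). The receptor itself, AHR, was higher at 58.8 ± 6.79 against 28.5 ± 6.12 TPM (1.03 ± 0.15), and so was POR, the electron donor of microsomal P450 enzymes, at 38.8 ± 0.61 against 18.5 ± 1.33 TPM (1.03 ± 0.11). Reads may be shared between close relatives in these families, so the values of single members are uncertain. Of the conjugating enzymes, 12 were higher and 17 lower of 35 measured (median -0.29; 6 and 17 without P. fulvidraco 1 and 2). Symbols of UDP-glucuronosyltransferases had 3 higher and 6 lower of 10 (median -1.11; 3 and 6 without P. fulvidraco 1 and 2). Sulfotransferases had 1 higher and 5 lower of 9 (median -0.58; 1 and 5 without P. fulvidraco 1 and 2), with 2 higher without P. fulvidraco 3. Glutathione transferases had 2 higher and 7 lower of 11 (median -0.95; 1 and 7 without P. fulvidraco 1 and 2). Lower were GSTT1 at 76.1 ± 16 against 661 ± 133 TPM (-3.10 ± 0.19), Gsta4 at 43.8 ± 2.5 against 220.5 ± 34.7 TPM (-2.29 ± 0.13), GSTP1 at 90.5 ± 5.02 against 295 ± 60.4 TPM (-1.67 ± 0.14) and UGT2A3 at 11.8 ± 1.48 against 197 ± 63.3 TPM (-3.90 ± 0.24), and aldehyde oxidase AOX1 at 44.3 ± 8.51 against 360.4 ± 13.3 TPM (-3.01 ± 0.13).

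Genes for nitrogen disposal were mostly lower. Of the urea cycle and ammonia list, 2 were higher and 10 lower of 16 measured (median -0.60; 0 and 10 without P. fulvidraco 1 and 2). ARG1, arginase, stood at 28.7, 25 and 22.6 TPM in the P. vachelli libraries and 238, 359 and 443 TPM in those of P. fulvidraco, with P. fulvidraco 3 the highest and no overlap (-3.68 ± 0.20, adjusted p = 1.92e-06). CPS1 and OTC, the mitochondrial entry of the cycle, were low in both species and lower in P. vachelli, at 0.01 ± 0.01 against 2.57 ± 0.303 TPM (-1.82 ± 0.17) and 0.06 ± 0.052 against 6.37 ± 3.53 TPM (-2.69 ± 0.32). Adult bony fishes excrete most nitrogen as ammonia, and the purine route to urea runs through uricase UOX and allantoicase allc, which were lower at 843 ± 43.1 against 1474 ± 69.4 TPM (-0.81 ± 0.07) and 32.5 ± 2.34 against 75.5 ± 4.63 TPM (-1.19 ± 0.09). The 2 higher members were Slc25a15, an ornithine carrier, and XDH, xanthine dehydrogenase. Their count was 0 without P. fulvidraco 1, P. fulvidraco 2 or P. vachelli 2 and 1 without P. vachelli 1.

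Of the genes of amino acid breakdown, 25 were higher and 20 lower of 67 measured (median 0.10; 19 and 16 without P. fulvidraco 1 and 2). Steps of a single pathway differed in sign. Along the breakdown of tryptophan, tdo2b, the first dioxygenase, was lower at 92.5, 114 and 162 TPM in the P. vachelli libraries and 521, 611 and 734 TPM in those of P. fulvidraco (-2.35 ± 0.21). The next enzymes, afmid and kmo, were higher at 67.6 ± 6.73 against 17 ± 3.83 TPM (1.95 ± 0.15) and 307 ± 12.7 against 114 ± 11.1 TPM (1.42 ± 0.10), and KYNU and haao, further on, were lower at 41.7 ± 2.49 against 115 ± 6.52 TPM (-1.44 ± 0.14) and 154 ± 15.2 against 315 ± 30.3 TPM (-1.03 ± 0.10). PRODH, proline dehydrogenase, was lower at 1.5 ± 0.28 against 25.3 ± 3.42 TPM (-3.39 ± 0.23). Qdpr and Pcbd1, which recycle the cofactor of phenylalanine hydroxylation, were called in opposite directions at 718 ± 14 against 332 ± 105 TPM (1.17 ± 0.20) and 16.3 ± 2.07 against 108 ± 11.4 TPM (-2.65 ± 0.13).

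Of the antioxidant enzymes, 14 were higher and 7 lower of 36 measured (median 0.22; 11 and 5 without P. fulvidraco 1 and 2). The higher members included abundant ones. sod1, the cytosolic superoxide dismutase, stood at 641, 630.0 and 692 TPM in the P. vachelli libraries and 106, 97.8 and 137 TPM in those of P. fulvidraco (2.53 ± 0.13), the methionine sulfoxide reductase msrb2 at 492 ± 24.4 against 69.7 ± 12.4 TPM (2.81 ± 0.12) and HMOX2, a heme oxygenase, at 26.8 ± 1.11 against 3.93 ± 0.469 TPM (2.50 ± 0.11). The lower members included GPX4, which reduces lipid peroxides, at 681 ± 40.8 against 1317 ± 160.0 TPM (-0.95 ± 0.10), and the quinone reductase Nqo1 at 3.35 ± 1.75 against 18.5 ± 6.43 TPM (-2.21 ± 0.33). Catalase, cat, was not called and was bounded within 1.5-fold (-0.15 ± 0.10).

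Interferon-induced genes had the highest median of the 35 function lists. Of its members, 17 were higher and 4 lower of 30 measured (median 0.64; 8 and 4 without P. fulvidraco 1 and 2), and 2 were lower without P. fulvidraco 3 or without P. vachelli 3. The antiviral radical SAM enzyme rsad2 (viperin) stood at 33.1, 83.1 and 69.2 TPM in the P. vachelli libraries and 2.9, 4.28 and 7.26 TPM in those of P. fulvidraco (3.40 ± 0.46). IFI44 had 6 rows, 3 of them higher and 1 lower, and summed to 193, 317 and 299 TPM in the P. vachelli libraries and 20.2, 24.6 and 27.5 TPM in those of P. fulvidraco (3.41 ± 0.21). The RNA sensor DDX58 (RIG-I) was higher at 10.0 ± 2.02 against 1.87 ± 0.591 TPM (1.95 ± 0.28). samhd1, a nucleotide hydrolase that limits viruses, stood at 6.17 ± 1.62 TPM and was listed at 0 in each P. fulvidraco library. The 4 lower members were mx, mx2, IRF9 and TRIM25. The antiviral GTPases were less secure: mx was lower at 0.737 ± 0.499 against 2.68 ± 1.33 TPM (-1.05 ± 0.30) and not called without P. fulvidraco 1, P. fulvidraco 3 or P. vachelli 3, and mx1 was higher at 7.56 ± 0.86 against 3.31 ± 0.985 TPM (1.01 ± 0.30) and not called without P. fulvidraco 2, P. fulvidraco 3, P. vachelli 1 or P. vachelli 2. mx2 (-0.49 ± 0.18) was not called without any 1 library other than P. fulvidraco 1. Of the chemokines, cytokines and receptors, 6 were higher and 9 lower of 38 measured (median -0.11; 2 and 6 without P. fulvidraco 1 and 2), with CCL5 and CCL3 as the largest differences. Interleukin 8, CXCL8, which attracts neutrophils, was lower at 2.76 ± 0.67 against 12.4 ± 2.49 TPM (-1.83 ± 0.27).

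Genes of protein synthesis leaned to lower levels, with wide differences between single ribosomal proteins. Of the cytosolic ribosomal proteins, 15 were higher and 34 lower of 80 measured (median -0.16; 14 and 28 without P. fulvidraco 1 and 2), and 39 were bounded within 1.5-fold. Against that background RPS15A stood at 221 ± 33.8 against 2024 ± 84.2 TPM (-3.20 ± 0.11), RPL23 at 1021, 989 and 972 TPM in the P. vachelli libraries and 4238, 5111 and 5249.7 TPM in those of P. fulvidraco and RPL38 at 960.0 ± 125 against 167 ± 36.4 TPM (2.54 ± 0.24). The list held 10.9% of TPM in P. vachelli and 12.8% in P. fulvidraco on average. These genes have near-identical copies, so reads may be split and the value of a single member is uncertain. Of the translation factors, 9 were higher and 21 lower of 51 measured (median -0.23; 5 and 15 without P. fulvidraco 1 and 2), and of the aminoacyl-tRNA synthetases, which load tRNA, 3 higher and 13 lower of 35 (median -0.38; 2 and 6 without P. fulvidraco 1 and 2), with 8 lower without P. vachelli 2. Eprs, the fused enzyme for glutamate and proline, stood at 9.1, 8.99 and 8.63 TPM in the P. vachelli libraries and 83.3, 80.3 and 89.5 TPM in those of P. fulvidraco (-3.11 ± 0.09).

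Hormone and signalling genes were called in both directions. The share called was 54.3% in the insulin, growth hormone and IGF list and 37.0% among nuclear receptors and liver factors, against 48.6% of all symbols. Of the insulin, growth hormone and IGF list, 10 were higher and 15 lower of 46 measured (median -0.17; 4 and 11 without P. fulvidraco 1 and 2), and 6 were higher without P. vachelli 2. The insulin receptor INSR was higher at 55.9, 53.9 and 54.2 TPM in the P. vachelli libraries and 23.1, 22.9 and 27.6 TPM in those of P. fulvidraco (1.13 ± 0.15), and the growth hormone receptor GHR lower at 49.7 ± 7.08 against 83.6 ± 8.64 TPM (-0.74 ± 0.13). IGFBP3, which carries insulin-like growth factors in plasma, was lower at 2.18 ± 0.144 against 15.7 ± 1.43 TPM (-2.39 ± 0.17), and the adaptor Shc1 higher at 19.7 ± 1.97 against 2.63 ± 0.646 TPM (2.52 ± 0.14). Of the nuclear receptors and liver factors, 8 were higher and 9 lower of 46 measured (median 0.03; 3 and 9 without P. fulvidraco 1 and 2). HNF4A and its relative hnf4b, regulators of hepatocyte genes, were called in opposite directions at 68.3 ± 5.64 against 138 ± 3.66 TPM (-1.01 ± 0.12) and 71.4 ± 7.49 against 25.3 ± 6.78 TPM (1.48 ± 0.17), and Cebpa was lower at 15.6 ± 3.96 against 49.6 ± 3.89 TPM (-1.63 ± 0.27). esr1 differed within P. fulvidraco and was not called (-1.70 ± 0.79); without P. fulvidraco 3 it was called lower (-2.85).

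**Figure D5:**
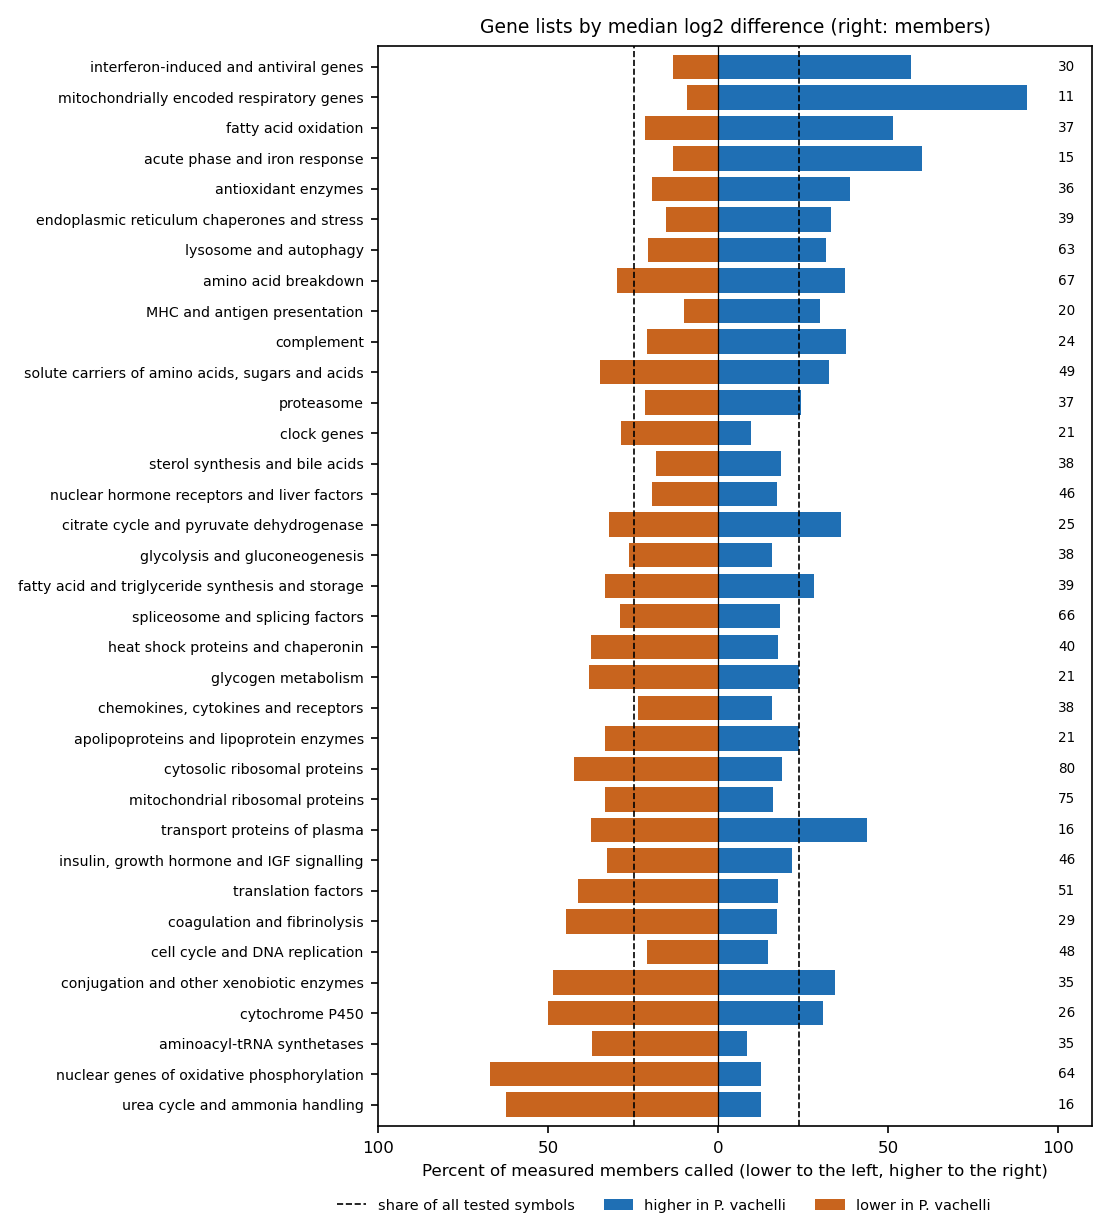
Share of the measured members of 35 gene lists that were called higher (blue, to the right) or lower (orange, to the left) in P. vachelli, in percent, with the number of measured members at the right and dashed lines at the shares of all tested symbols (23.9% and 24.7%). Lists are ordered by median log2 difference, from interferon-induced genes (0.64) at the top to the urea cycle list (-0.60) at the bottom.

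The remaining functions are given by their counts, to be read beside the 23.9% higher and 24.7% lower of all symbols. Glycolysis and gluconeogenesis had 6 higher and 10 lower of 38 (median -0.03; 2 and 7 without P. fulvidraco 1 and 2), with 6 lower without P. vachelli 1. Glycogen metabolism had 5 higher and 8 lower of 21 (median -0.11; 2 and 6 without P. fulvidraco 1 and 2), and its higher count was 2 or 3 without P. fulvidraco 1, P. fulvidraco 2, P. vachelli 1 or P. vachelli 3. The proteasome had 9 higher and 8 lower of 37 (median 0.04; 10 and 4 without P. fulvidraco 1 and 2), with 5 lower without P. fulvidraco 2, P. vachelli 2 or P. vachelli 3. Chaperones of the endoplasmic reticulum had 13 higher and 6 lower of 39 (median 0.19; 15 and 5 without P. fulvidraco 1 and 2). Heat shock proteins had 7 higher and 15 lower of 40 (median -0.11; 4 and 8 without P. fulvidraco 1 and 2), and lysosomal and autophagy genes 20 higher and 13 lower of 63 (median 0.18; 14 and 9 without P. fulvidraco 1 and 2). Antigen presentation had 6 higher and 2 lower of 20 (median 0.08; 3 and 2 without P. fulvidraco 1 and 2) and the clock genes 2 higher and 6 lower of 21 (median 0.04; 1 and 7 without P. fulvidraco 1 and 2), with 1 clock gene higher without P. fulvidraco 1 or without any 1 P. vachelli library. Cell cycle genes had 7 higher and 10 lower of 48 (median -0.26; 6 and 1 without P. fulvidraco 1 and 2), with 5 lower without P. fulvidraco 1 or P. vachelli 3. Mitochondrial ribosomal proteins had 12 higher and 25 lower of 75 (median -0.16; 12 and 16 without P. fulvidraco 1 and 2), splicing factors 12 higher and 19 lower of 66 (median -0.10; 10 and 11 without P. fulvidraco 1 and 2), and solute carriers 16 higher and 17 lower of 49 (median 0.06; 14 and 12 without P. fulvidraco 1 and 2). The clock genes and the solute carriers had medians above 0 but summed to less in P. vachelli. The clock genes summed to 269 to 291 TPM over the P. vachelli libraries and 318 to 415 TPM over those of P. fulvidraco. The solute carriers summed to 744 to 793 TPM over the P. vachelli libraries and 798 to 899 TPM over those of P. fulvidraco. The sum over all tested symbols was also lower in P. vachelli, at 55.9% against 59.5% of TPM on average. Zinc finger symbols had 40 higher and 19 lower of 140 (median 0.13; 24 and 10 without P. fulvidraco 1 and 2).

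Markers of other cell types were low beside those of hepatocytes, and in bulk tissue fewer cells of a type and less RNA per cell cannot be told apart. Of the hepatocyte markers, 5 were higher and 13 lower of 22 measured (median -0.47; 3 and 14 without P. fulvidraco 1 and 2). Of the exocrine pancreas markers, 1 was higher and 5 lower of 14 measured (median -0.46; 1 and 4 without P. fulvidraco 1 and 2), with 2 higher without P. vachelli 2. The lower count was 8 without P. fulvidraco 1, 3 without P. fulvidraco 2 and 2 without P. fulvidraco 3, P. vachelli 2 or P. vachelli 3. They summed to 2157 to 3848 TPM over the P. vachelli libraries and 2600.1 to 6592 TPM over those of P. fulvidraco, and these ranges overlapped. The elastase CELA2A stood at 1353, 621 and 702 TPM in the P. vachelli libraries and 1368, 3223 and 3709.8 TPM in those of P. fulvidraco, with P. vachelli 1 and P. fulvidraco 1 close together. The higher member, with the symbol Prss2, is described as complement C1s, a plasma protease. It stood at 519 ± 67.7 TPM in P. vachelli and was listed at 0 in each P. fulvidraco library. The sum of the list includes this member, so in P. vachelli it is not a level of pancreatic transcripts alone. Of the erythrocyte markers, 1 was higher and 3 lower of 7 measured (median -0.34; 0 and 3 without P. fulvidraco 1 and 2), with 2 higher without P. fulvidraco 3 or P. vachelli 3. The higher member was the hemoglobin chain hba, and the list summed to 6279.8 to 9259.6 TPM over the P. vachelli libraries and 3606 to 5378 TPM over those of P. fulvidraco. Of the macrophage markers, 0 were higher and 2 lower of 10 measured (median -0.36; 0 and 4 without P. fulvidraco 1 and 2), with 4 lower without P. fulvidraco 1. The lower members with all libraries were CD163 and IRF8. MARCO, MPEG1 and Spi1, which also mark macrophages, were not called (-0.39 ± 0.20, -0.33 ± 0.21 and 0.27 ± 0.19); without P. fulvidraco 1, MARCO was called lower (-0.59). Of the neutrophil markers, 3 were higher and 1 lower of 6 measured (median 0.17; 2 and 0 without P. fulvidraco 1 and 2), with 0 lower without P. fulvidraco 2, P. fulvidraco 3, P. vachelli 1 or P. vachelli 2. Higher was, among others, the oxidase subunit Ncf1 at 25.3 ± 0.602 against 7.72 ± 1.3 TPM (1.60 ± 0.14). Of the endothelial markers, 7 were higher and 2 lower of 14 measured (median 0.55; 3 and 2 without P. fulvidraco 1 and 2), and Stab1 and LYVE1, of sinusoidal and lymphatic endothelium, stood at 7.83 ± 2.23 against 2.04 ± 0.369 TPM (1.52 ± 0.25) and 10.4 ± 4.14 against 2.62 ± 0.135 TPM (1.60 ± 0.28). The stellate cell and fibroblast list had 5 higher and 5 lower of 19 (median 0.25; 3 and 4 without P. fulvidraco 1 and 2), with 3 higher without P. vachelli 2 and 3 lower without P. vachelli 3. It summed to 1113 to 1332 TPM over the P. vachelli libraries and 3776 to 4085 TPM over those of P. fulvidraco, a level that includes the rows of FN1. The small lists had few measured members: B cell 3 higher and 0 lower of 5 (median 0.50; 1 and 0 without P. fulvidraco 1 and 2), with 1 higher without any 1 P. vachelli library and 1 lower without P. vachelli 2, T and natural killer cell 0 higher and 1 lower of 5 (median -0.09; 0 and 1 without P. fulvidraco 1 and 2), cholangiocyte 2 higher and 1 lower of 9 (median -0.19; 2 and 2 without P. fulvidraco 1 and 2), with 2 lower without P. fulvidraco 1, and adipocyte 1 higher and 1 lower of 6 (median -0.01; 0 and 1 without P. fulvidraco 1 and 2). The part of these cell types in the differences described above was not tested.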

How the data were processed

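Poly(A) RNA of juvenile liver was sequenced in 3 libraries each of P. vachelli, P. fulvidraco and their hybrid, per the labels. The values are TPM per assembled row, computed by the authors before they were deposited; reads were handled with cutadapt and FastQC, per the submitters' processing notes, without versions. Quantifier, assembly settings and the origin of symbols: not given in the sources used here. The extraction protocol in the labels mentions adipose, and the tissue label, liver, was followed. All value columns matched a library title (0 without a sample). TPM keep no depth, so no counting interval is given.

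Rows with at least 1 TPM in 3 of the 9 libraries were tested, singly and summed per symbol, with limma 3.58.1 in R 4.3.3: log2(TPM + 1), a trend, 1 fit of 9 libraries with 6 residual degrees of freedom, two-sided, Benjamini-Hochberg at 0.05. An exact permutation test of 3 against 3 cannot go below 0.1 and was not used. A RefSeq gene table for the species held 6847 of the 10775 symbols. No genome or sequence table was used, so no sequences or coordinates are printed.

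On simulated data made from these symbols, the fit called 76% of genes changed by 1 and 97% of those changed by 2 log2 units. On rows the shares were 29% and 73%. The changed genes, 100 per size, were drawn only from those above the median level, and all others were left unchanged. Far more were called in the data, so these shares do not give the power of the fit over all symbols or rows.

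Members, lists and the rule for named genes were chosen with earlier results of these data known. The rule took the 15 largest rises and 15 largest falls among abundant symbols without overlap, 8 per side near 0 in a species, the most abundant symbols, those bounded within 1.5-fold, those whose rows were called in both directions, and up to 4 members per list; any list gene could be named for its value, and not every gene that fits it is reported here. The alternatives were scaling by quantiles or median ratios, a fit without the trend, a filter of 5 TPM or none, pseudocounts of 0.1 and 5, the parental libraries alone, a block for the replicate number, omission of each library, the highest row of a symbol, summing before the filter, and summing by description.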

Additional observations from a re-analysis of the deposited data

How the results depend on the processing

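The number of called symbols stayed within 1.5 times of 5239 in all settings run, from 3591 without P. fulvidraco 1 and 2 to 6295 with rows summed by description. The count of called rows was 10618 with a filter of 5 TPM, which tests fewer rows. Symbols past 2-fold numbered 982 with a pseudocount of 5, which shrinks differences between low values, and 2774 with a pseudocount of 0.1. Symbols bounded within 1.5-fold numbered 1278 without P. fulvidraco 1 and 2, 1489 with the 5 TPM filter, 1721 with a pseudocount of 0.1 and 5736 with a pseudocount of 5. Leaving out 1 library gave 24364 to 25479 called rows, 4500 to 4920 called symbols, 2132 to 2213 symbols past 2-fold and 1950 to 2219 bounded symbols.

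Directions turned when the gene was defined otherwise. With the row of highest mean in place of the sum, the log2 difference was 3.36 for c3, 0.64 for Itih3, 0.73 for MASP1, -13.33 for mt-co2 and -0.03 for XDH. With rows summed by description it was 0.46 for Apob, -0.70 for CCL8 and 1.11 for Gpt2. The cause was not tested beyond the rows given above.

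For libraries of the same number, deviations from the species means correlated at -0.083, -0.033 and -0.031. For libraries of different numbers the correlations ran from -0.100 to 0.121. Such values cannot decide whether the numbers pair the libraries, because a shared aquarium or batch need not leave a strong correlation. The main fit did not pair them. With the replicate number as a block, 5076 symbols were called.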
